A study of Mus musculus with 8 samples.

Results

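The tumour suppressor p53, encoded in the mouse by Trp53, and 9 genes that it is known to activate were examined in chromatin accessibility data from SN4741 cells: Mdm2, Cdkn1a, Bax, Bbc3, Pmaip1, Perp, Gdf15, Ccng1 and Sesn1. These 10 genes were listed by name among the 21951 protein-coding genes of the GENCODE M21 annotation. Every peak that touched the body of one of them or the 20 kb on either side was taken, and peaks of all libraries that overlapped were merged into regions. Regions called in at least 2 libraries numbered 69 at the 10 genes, of 84777 in the genome.

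SN4741 is a single clonal line derived from embryonic mouse substantia nigra and labelled as wild-type neural precursor cells. Both groups carry a temperature-sensitive SV40 large T antigen (tsA58) driven by the tyrosine hydroxylase promoter. ATAC-seq, an assay in which accessible DNA is cut and tagged by a transposase, was performed on 4 libraries of cells grown at the permissive temperature of 37°C in 10% serum and on 4 libraries of cells held for 48 h at the non-permissive temperature of 39°C in 0.5% serum, so temperature and serum cannot be told apart. The labels do not say whether replicates came from separate cultures, and a p-value then measures only the spread between these libraries. The line is polyploid with an unstable karyotype, which limits it as a model.

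p53 is a transcription factor that is held at a low level by the ubiquitin ligase Mdm2, itself a p53 target, and that accumulates after DNA damage and other stresses. It binds as a tetramer to response elements made of a pair of decamers. Its targets arrest or regulate the cell cycle (Cdkn1a, Ccng1), promote apoptosis (Bax, Bbc3, Pmaip1, Perp), limit growth signalling under stress (Sesn1) or encode a secreted stress factor (Gdf15). Response elements are known upstream of Cdkn1a, in the first intron of Mdm2, and near the starts of Bax, Bbc3, Pmaip1 and Ccng1, and SV40 large T antigen is known to bind p53.

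The peak caller kept 49.8 to 169 M fragments per library, and 37°C replicates 1 and 4, at 169 and 158 M, were deeper than the other 6. The lists held 74026 to 92013 peaks at 37°C and 54845 to 68410 at 39°C. Because the same peak takes a higher percentile in a longer list, ranks were mainly compared in lists cut to the 54845 peaks with the highest −log10 q. The shortest list was that of 39°C replicate 4, which stood apart: at all 10 genes its promoter peak had the lowest fold enrichment of the 8 libraries. A promoter peak was present in all 8 libraries for 4 of 4 neuronal genes (Rbfox3, Map2, Tubb3 and Th), 5 of 7 neural precursor genes and 3 of 3 fibroblast genes. Of the oligodendrocyte, microglial and endothelial genes, Mbp had one in all 8, Sox10, Aif1 and Pecam1 in 4 libraries at 37°C and 3 at 39°C, and Olig2, Ptprc, Cx3cr1 and Cdh5, like the precursor gene Fabp7, in none. The part of cell type in the results was not tested.

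A p53 decamer is 3 purines, C, 2 bases that are each A or T, G and 3 pyrimidines, a pattern that reads the same on both strands. A full site was defined as 2 decamers separated by 0 to 13 bases, with at most 2 mismatches in all and none at the central C and G of either decamer. The 10 windows held 144 full sites, counting each pair of decamers where sites overlapped. Of these, 40 lay inside a peak in all 8 libraries, 17 of them with no gap. Mdm2 held 14 of the 40, Bax 7, Ccng1 5, Gdf15 4, Cdkn1a and Sesn1 3 each, Pmaip1 2, Bbc3 and Perp 1 each, and Trp53 0. Most of those at Mdm2 lay in its merged promoter region, 36553 bp wide, which also takes in a promoter of Cpm. No rate per kb or share over the genome was counted for these numbers, so they do not show whether the windows are rich in sites. Of 13 RefSeq promoter windows of 300 bases at 8 of the genes, 4 held a full site (30.8%), against 4.09% of 32851 such windows. A match describes letters only and says nothing of binding.

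Selected sites are printed 5′ to 3′ with capitals marking full sites, on mm10. Cdkn1a encodes the cell cycle inhibitor p21. A gapless site with 1 mismatch was centred 39 bp before its most upstream annotated start, overlapping a pair with 0 mismatches and a gap of 12 bases. The gapless site lay 2847 to 4512 bp from the summits of the promoter peak. It is shown within the RefSeq promoter window of that start (chr17:29090729-29091028, plus strand). The window around a downstream start of the same gene, where the peak summit lay at 39°C, held no full site (chr17:29093519-29093818, plus strand).
Cdkn1a upstream start: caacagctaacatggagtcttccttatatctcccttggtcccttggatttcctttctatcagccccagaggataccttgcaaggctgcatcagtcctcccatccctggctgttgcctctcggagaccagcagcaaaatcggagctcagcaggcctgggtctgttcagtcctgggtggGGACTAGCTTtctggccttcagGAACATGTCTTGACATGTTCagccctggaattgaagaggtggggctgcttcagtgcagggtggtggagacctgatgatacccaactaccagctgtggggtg
Cdkn1a downstream start: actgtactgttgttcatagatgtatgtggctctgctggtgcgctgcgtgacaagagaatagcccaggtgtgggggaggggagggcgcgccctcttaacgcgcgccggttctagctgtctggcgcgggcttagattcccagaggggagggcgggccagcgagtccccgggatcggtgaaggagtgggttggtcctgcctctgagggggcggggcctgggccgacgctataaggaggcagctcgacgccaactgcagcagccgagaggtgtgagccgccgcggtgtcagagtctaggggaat

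Ccng1 encodes cyclin G1, and gapless sites with 1 mismatch each were centred 160 bp before and 366 bp after its start, the second in an intron. The first is shown in the RefSeq promoter window on the gene's strand (chr11:40755237-40755536, minus strand), where the capitals also take in an overlapping pair of decamers with a gap of 5 bases. The second is shown on the plus strand with its decamers in capitals (chr11:40754931-40754960).
Ccng1 promoter: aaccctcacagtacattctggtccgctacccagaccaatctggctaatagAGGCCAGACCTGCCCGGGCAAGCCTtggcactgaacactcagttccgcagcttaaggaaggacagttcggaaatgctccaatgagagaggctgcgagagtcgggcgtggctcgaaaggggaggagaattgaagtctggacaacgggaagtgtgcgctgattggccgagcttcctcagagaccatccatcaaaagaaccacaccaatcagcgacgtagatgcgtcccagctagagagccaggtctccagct
Ccng1 intron: ggcgcAGACTAGCCCGGGCTTGCGTtccgg

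A full site lay within 100 bp of the summit, taken as the median over libraries, in 5 of the 69 regions (7.25%), against 3.93% of all 84777 regions. These were the Bax promoter and regions 11906 bp before Cdkn1a, 7014 bp before Mdm2, 16754 bp before Gdf15 and 5138 bp before Pmaip1. The 3 with a gapless site are shown on the plus strand. The region before Cdkn1a (chr17:29078970-29079170) is at a start of Trp53cor1, the noncoding RNA also called lincRNA-p21, and its site lay 3 to 26 bp from the summits. The region before Mdm2 (chr10:117717672-117717872) is between genes and holds 2 overlapping gapless sites, the closer 23 to 79 bp from the summits. The Bax site (chr7:45466569-45466598) is in an exon, 42 to 120 bp from the summits.
Cdkn1a distal: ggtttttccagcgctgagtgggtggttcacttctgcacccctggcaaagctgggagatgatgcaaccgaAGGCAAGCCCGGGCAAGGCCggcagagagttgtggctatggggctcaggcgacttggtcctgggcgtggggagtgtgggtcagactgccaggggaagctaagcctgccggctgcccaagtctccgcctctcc
Mdm2 distal: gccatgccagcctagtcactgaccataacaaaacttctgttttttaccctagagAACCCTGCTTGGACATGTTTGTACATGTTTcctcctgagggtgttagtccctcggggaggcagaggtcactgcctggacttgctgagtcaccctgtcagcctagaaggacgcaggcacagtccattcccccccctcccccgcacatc
Bax: gccagCGACAAGCCCGGGCCTGCCCggggg

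Gapless sites with 3 mismatches were also listed, a choice made after seeing the data. Inside peaks of all 8 libraries there were 3 at Bax, 2 each at Mdm2, Cdkn1a and Sesn1, and 1 each at Bbc3 and Trp53, the last centred 66 bp before the Trp53 start. Of these, 3 are shown. One in an intron of Bbc3 (chr7:16309481-16309510) and one in an annotated exon of Mdm2 (chr10:117710100-117710129) lay inside the promoter peak in all 8 libraries, and another lay 2 to 28 bp from the summits of a region before Sesn1 (chr10:41796087-41796116). A Gdf15 site with 1 mismatch lay in an exon, 120 bp after the nearest transcript start (chr8:70631961-70631990). It was 1994 to 1999 bp from the summits of the promoter peak. All 4 are on the plus strand, with the decamers in capitals.
Bbc3: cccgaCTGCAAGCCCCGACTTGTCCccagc
Mdm2 promoter: acgccGGACGTGTCCCAACTTGACCagccc
Sesn1 distal: cctttTCACATGCCCAGGCCAGCCTccacc
Gdf15: agaaaAGGCAAGTTCAGGCAAGTCAcccct

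All 10 genes had a promoter peak, within 1 kb of a transcript start, in 8 of 8 libraries, as did 59.9% of all protein-coding genes. Presence therefore did not separate the temperatures at any of them (Fisher's exact test, two-sided, p = 1 for each gene). Of the 69 regions, 40 were called in all 8 libraries, against 52.9% of all regions, and these included 11 promoter regions because Sesn1 has 2.

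The rank of the promoter peak did differ between temperatures. The rank percentile is 100 for the peak with the highest −log10 q of a list and near 0 for the last. Of the 10 genes, 6 had a promoter region of higher percentile at 39°C (Mdm2, Cdkn1a, Ccng1, Bax, Bbc3 and Pmaip1), 2 had one of lower percentile (Trp53 and Gdf15) and 2 did not pass the test (Perp and Sesn1; limma, adjusted p below 0.05 over 41180 regions with a peak in all 8 cut lists). Over 13130 protein-coding genes, 9.27% of promoter regions were higher and 16.0% lower. The median difference was 1.68 points over the 10 genes and −0.08 points over all promoters. A percentile belongs to the summit of the peak that touches the promoter, which in wide peaks need not lie at the start. At Cdkn1a the summits of the groups lay apart, so that their ranks compare different positions, and at Bbc3 those of 3 of the 4 libraries at 37°C lay apart from the other 5.

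**Figure D1:**
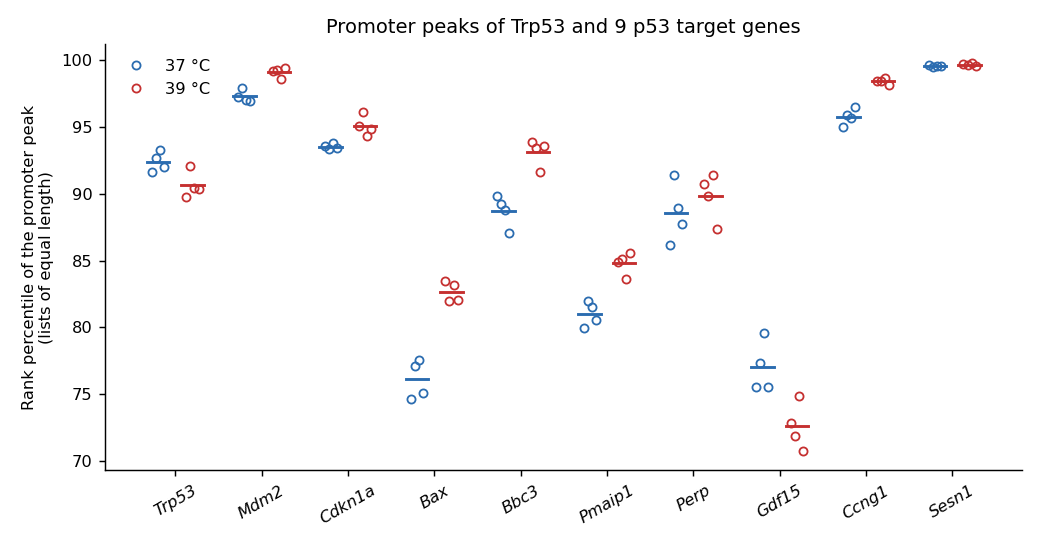
Rank percentile (y axis, in lists of 54845 peaks) of the highest-ranked promoter peak of each gene (x axis) in each library, with circles for libraries (blue, 37°C; red, 39°C) and bars for the means of 4. The groups do not overlap for Mdm2, Cdkn1a, Bax, Bbc3, Pmaip1 and Ccng1, where 39°C is higher, or for Gdf15, where it is lower.

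Among the cell cycle genes, the Cdkn1a promoter stood at percentiles of 93.6, 93.4, 93.8 and 93.4 at 37°C and 95.1, 96.2, 94.3 and 94.9 at 39°C. Every library at 39°C was above every one at 37°C, and the difference was 1.56 ± 0.430 points (SE, n = 4 per group; limma, adjusted p = 0.0119, or 0.0803 without the trend of variance on mean percentile). The Ccng1 promoter stood at 95.0, 95.9, 95.7 and 96.5 at 37°C and 98.5, 98.5, 98.7 and 98.2 at 39°C, again without overlap, a rise of 2.67 ± 0.361 points (adjusted p = 0.000125). For Mdm2, the negative regulator of p53, the percentiles were 97.3, 97.9, 97.0 and 97.0 at 37°C and 99.2, 99.3, 98.6 and 99.4 at 39°C. The groups were apart there too, by 1.80 ± 0.337 points (adjusted p = 0.00115). The merged region, 36553 bp wide, also takes in a promoter of Cpm, and the part of each gene in its rank cannot be told apart.

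Of the 4 apoptosis genes, 3 rose. The promoter of Bax, which encodes a pore-forming protein of the mitochondrial outer membrane, went from 74.6, 77.1, 77.6 and 75.1 at 37°C to 83.5, 81.9, 83.2 and 82.0 at 39°C, or 6.56 ± 0.856 points (limma, adjusted p = 9.74e-05). Bbc3, which encodes the BH3-only protein Puma, went from 89.9, 89.2, 88.8 and 87.1 to 93.9, 93.5, 91.6 and 93.6, or 4.39 ± 0.671 points (adjusted p = 0.000287). Neither gene had overlapping groups. Pmaip1, which encodes the BH3-only protein Noxa, went from 80.0, 81.9, 81.6 and 80.6 to 84.9, 85.1, 83.6 and 85.6, or 3.78 ± 0.696 points (adjusted p = 0.00102). The groups were again apart. Perp, which encodes a membrane protein of desmosomes, stood at 86.2, 91.4, 88.9 and 87.7 at 37°C and 90.7, 89.8, 91.4 and 87.4 at 39°C, with overlapping groups and a difference of 1.26 ± 1.08 points (adjusted p = 0.379).

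The secreted factor gene Gdf15, whose summit lay 2475 to 2480 bp after the start of a gene of 3.06 kb, moved the other way, from 75.6, 77.3, 79.6 and 75.6 at 37°C to 72.9, 71.9, 74.9 and 70.7 at 39°C. The groups did not overlap, and the difference was −4.42 ± 1.17 points (limma, adjusted p = 0.00964). Trp53 itself stood at 91.6, 92.7, 93.3 and 92.0 at 37°C and 89.8, 92.1, 90.5 and 90.3 at 39°C. These groups overlapped, and the difference of −1.73 ± 0.570 points (adjusted p = 0.0282) lost its call without 37°C replicate 2 or 3 or 39°C replicate 1, 3 or 4, with adjusted p of 0.0604 to 0.0827. The call was also lost without the trend of variance on mean percentile. On log2 fold enrichment, centred on the median of each library, the Trp53 difference was 0.00865 (limma, adjusted p = 0.939). The Trp53 promoter region is shared with Wrap53, and accessibility of the 2 genes cannot be told apart there. Sesn1, which encodes a sestrin, ranked near the top of every list, at 99.6, 99.5, 99.6 and 99.6 at 37°C and 99.8, 99.6, 99.8 and 99.6 at 39°C in a promoter region shared with Cep57l1. Its difference was 0.112 ± 0.255 points (adjusted p = 0.758), on a scale that ends at 100, while on log2 fold enrichment, centred on the median of each library, it was higher at 39°C by 0.29 (limma, adjusted p = 0.0209).

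With whole lists in place of cut lists, 1.48% of all regions rose and 62.2% fell, and the median difference over all regions was −6.84 points, against −0.46 points in the cut lists. Among promoter regions of protein-coding genes 0.53% rose and 60.8% fell. On that scale 3 of the 10 promoters rose, those of Mdm2 (1.05 points, limma, adjusted p = 0.00559), Ccng1 (1.50 points, adjusted p = 0.00138) and Bbc3 (1.63 points, adjusted p = 0.0157), and those of Trp53 and Gdf15 fell. The Bax promoter, at 0.962 points, that of Cdkn1a, at 0.10 points, and that of Pmaip1, at −0.39 points, did not pass the test.

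The promoter peaks of Trp53 and Gdf15 were narrower at 39°C, and the share of the 10 genes that were so was near that of all genes. The peak of Trp53 was 9397, 6254, 6881 and 8438 bp wide at 37°C and 6119, 5530, 4774 and 4667 bp at 39°C. That of Gdf15 was 8383, 5074, 6251 and 8060 bp wide at 37°C and 4630, 4764, 3296 and 2942 bp at 39°C. Both were narrower in every library at 39°C than in any at 37°C (exact permutation test, two-sided, p = 0.0286 for each, the smallest this design allows). Over the 10 genes 2 were narrower without overlap, against 23.4% of protein-coding genes with a promoter peak in all 8 libraries, and 0 were wider, against 0.137%. None of the 10 genes had an unadjusted p under 0.05 for a wider peak by the exact permutation test.

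**Figure D2:**
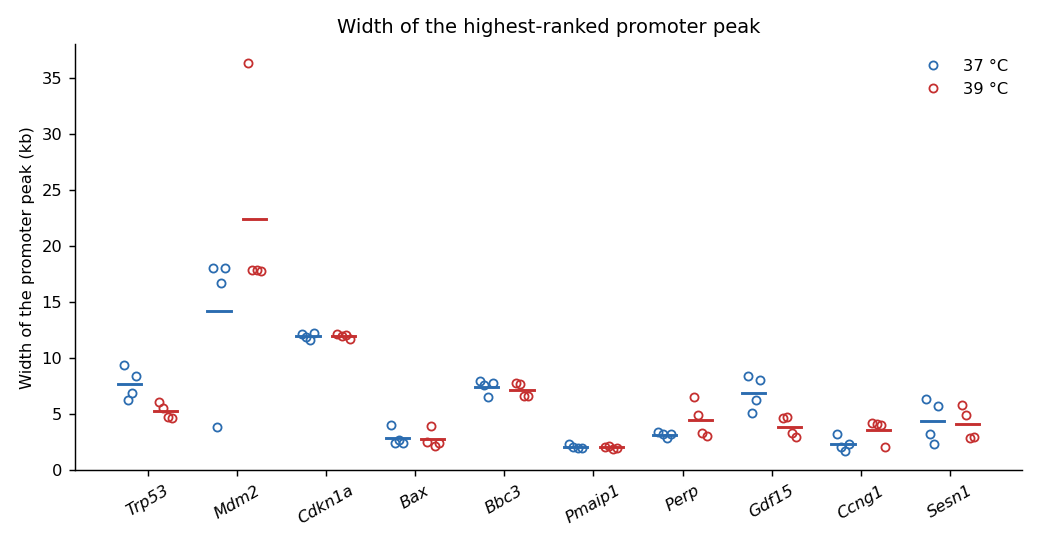
Width in kb (y axis, from 0) of the highest-ranked promoter peak of each gene (x axis) in each library, with circles for libraries (blue, 37°C; red, 39°C) and bars for the means of 4. Trp53 and Gdf15 are narrower in all 4 libraries at 39°C, and 39°C replicate 1 of Mdm2 reaches 36297 bp.

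At Mdm2, summing over all peaks that touched a promoter of the gene, in the region that also holds a promoter of Cpm, gave 33133, 18286, 30522 and 32244 bp at 37°C and 36297, 35902, 35926 and 35784 bp at 39°C. By this alternative measure every library at 39°C was wider (exact permutation test, two-sided, p = 0.0286), as were 0.129% of protein-coding genes, while 27.5% were narrower, Trp53 and Gdf15 among them. The highest-ranked peak alone was 18025, 3902, 16750 and 18028 bp wide at 37°C and 36297, 17850, 17880 and 17805 bp at 39°C, with overlapping groups. The Ccng1 promoter peak was 3280, 2116, 1738 and 2346 bp wide at 37°C and 4218, 4125, 4084 and 2082 bp at 39°C (exact permutation test, two-sided, p = 0.114). Of the 39°C libraries, 3 were wider than any at 37°C, and 39°C replicate 4, whose promoter held 2 peaks, was not.

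The summit, the position of highest pileup, moved within the Cdkn1a promoter peak. That peak was 11620 to 12211 bp wide in all 8 libraries, with overlapping groups. At 37°C its summit lay 4473, 4467, 4473 and 4472 bp after the gene start. At 39°C it lay 2808 bp after it in all 4 libraries, 3 bp from the downstream transcript start printed above, and the mean positions were 1663 bp apart. By a rule chosen after seeing the data, that groups do not overlap and their means lie at least 500 bp apart, 1 of the 10 genes was called, against 0.989% of protein-coding genes.

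Bbc3 met this rule when 37°C replicate 3 was left out, which gave 2 genes called. Its summit lay 5347, 5347, 1100 and 5413 bp after the gene start at 37°C and 1203, 1203, 1106 and 1100 bp after it at 39°C. In 37°C replicate 3 and 39°C replicates 3 and 4 the summit fell inside the site with 3 mismatches printed above, which is centred 1102 bp after the start.

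**Figure D3:**
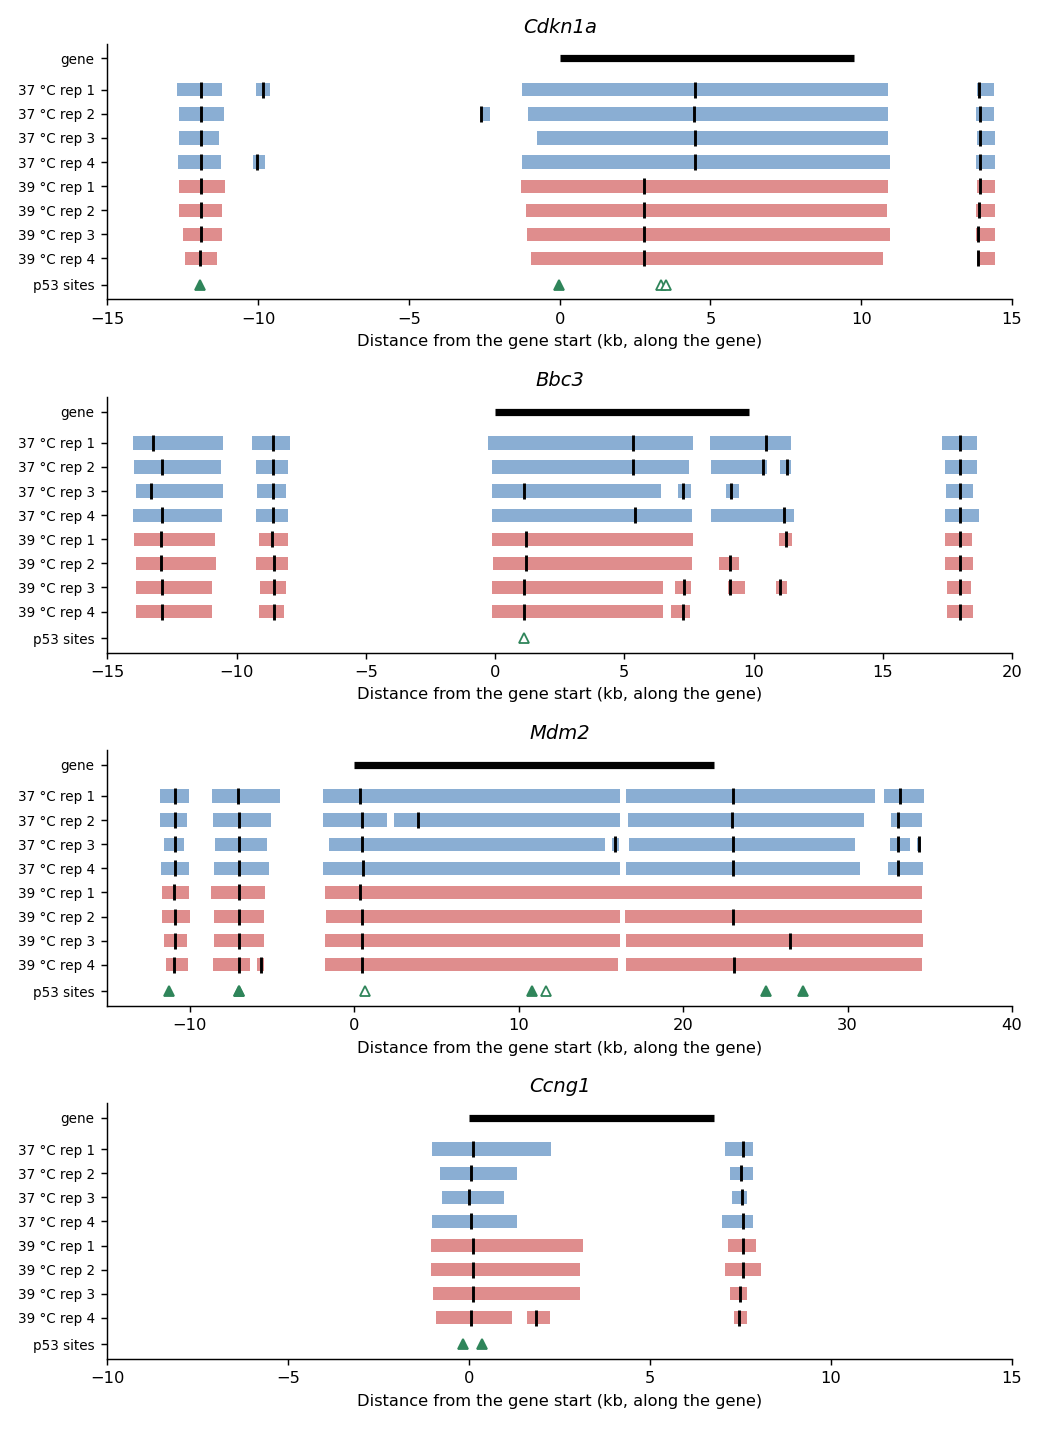
Peaks (bars; blue, 37°C; red, 39°C) and their summits (black ticks) in each library (rows) at 4 genes, by distance in kb from the gene start along the gene (x axis). Triangles mark gapless p53 sites lying in peaks of all 8 libraries, filled with up to 2 mismatches and open with 3, and the Cdkn1a summit lies 4467 to 4473 bp after the start at 37°C and 2808 bp after it at 39°C.

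Away from the promoters, 26 further regions in the 10 windows had a peak in all 8 cut lists. Of these, 10 were higher at 39°C, 6 lower and 10 did not pass the test. Together with the promoters this gave 16 regions higher and 8 lower of 37 (limma, adjusted p below 0.05), against 17.0% higher and 24.4% lower over all 41180 regions. The median difference was 0.62 points at the 10 genes and −0.46 points over all regions. With whole lists 5 regions were higher and 17 lower.

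**Figure D4:**
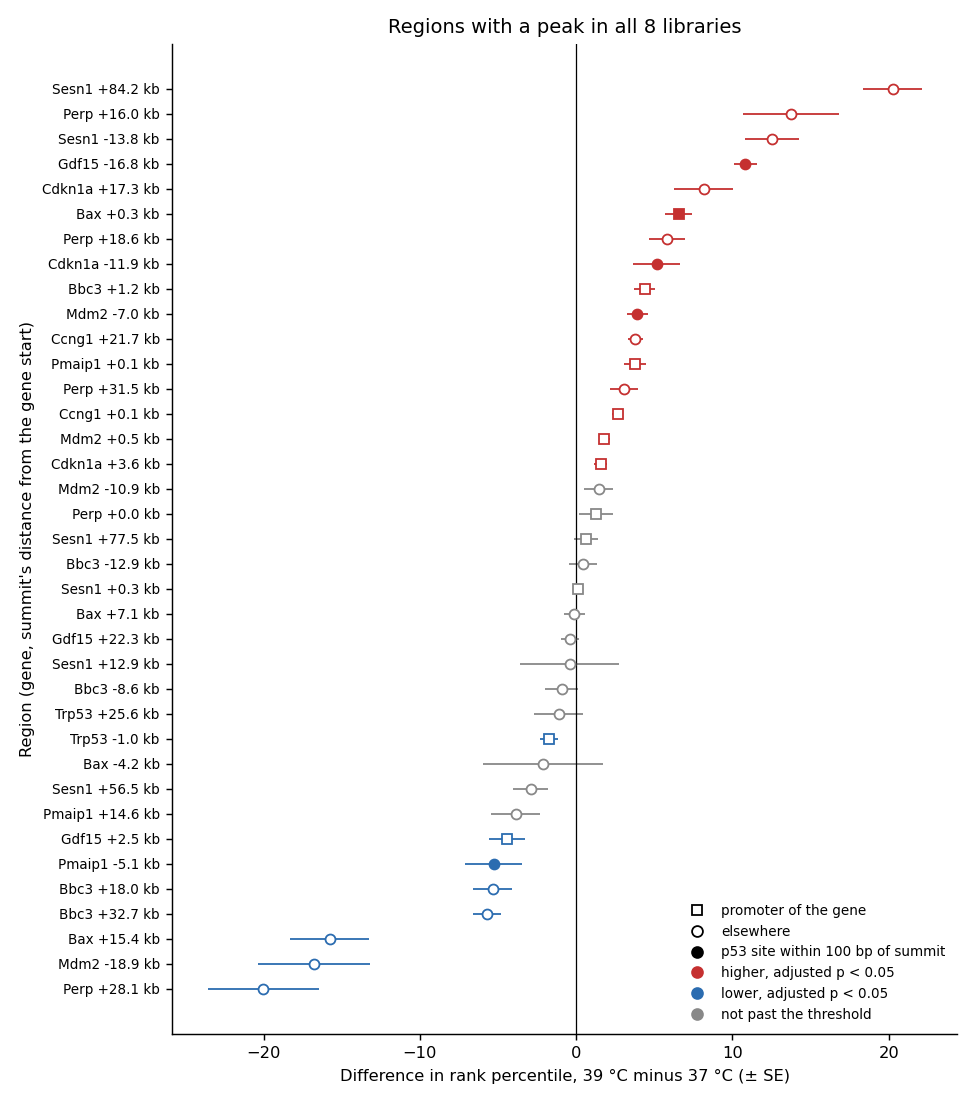
Difference in rank percentile between 39°C and 37°C (x axis, points, with SE bars) for the 37 regions at the 10 genes with a peak in all 8 lists of equal length (y axis, named by gene and the summit's distance from its start). Squares are promoters and circles other regions, a filled marker has a full p53 site within 100 bp of the summit, red marks the 16 higher and blue the 8 lower regions.

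Of the 5 regions with a full site at the summit, 4 rose and 1 fell. In the whole genome 1369 such regions could be tested, of which 30.1% were higher and 17.5% lower at 39°C. The region 7014 bp before Mdm2 stood at 85.7, 83.3, 83.7 and 84.9 at 37°C and 88.1, 88.1, 89.4 and 87.7 at 39°C. The groups were apart, by 3.92 ± 0.656 points (limma, adjusted p = 0.000529), and with whole lists by 0.378 points (adjusted p = 0.725). The region at Trp53cor1, 11906 bp before Cdkn1a, stood at 62.1, 65.3, 68.1 and 61.6 at 37°C and 70.2, 70.9, 68.2 and 68.4 at 39°C. Every library at 39°C was higher, though 39°C replicate 3 lay close to 37°C replicate 3. The difference of 5.15 ± 1.50 points (adjusted p = 0.0157) lost its call without 37°C replicate 4 (adjusted p = 0.0527) and without 37°C replicates 1 and 4 together (2.74 points, adjusted p = 0.167), and was −2.64 points with whole lists.

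The region 16754 bp before Gdf15, inside Pgpep1, went from 78.1, 76.5, 77.4 and 78.3 at 37°C to 89.8, 88.3, 88.5 and 87.0 at 39°C. It rose by 10.8 ± 0.736 points (limma, adjusted p = 1.89e-06), and with whole lists too, by 5.02 points (adjusted p = 0.00102). The peak that touches the Gdf15 promoter fell, but its summit lay 2475 to 2480 bp after the gene start. The region 5138 bp before Pmaip1 went from 54.7, 53.3, 52.9 and 57.7 to 49.7, 50.6, 45.6 and 51.7, a difference of −5.27 ± 1.81 points (adjusted p = 0.0345) without overlap. That call was lost without 37°C replicate 1 or 4, without 39°C replicate 1 or 3 and without both deep libraries, with adjusted p of 0.0611 to 0.241.

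Sesn1 held the largest rise of the 37 regions, in an intron 84217 bp after its start (chr10:41892945-41894669), in a region with a gapless full site 497 to 673 bp from the summits. It stood at 47.7, 44.8, 39.4 and 45.8 at 37°C and 66.2, 65.7, 63.9 and 62.8 at 39°C. The groups were far apart, by 20.2 ± 1.87 points (limma, adjusted p = 9.45e-06), and with whole lists the difference was 6.85 points (adjusted p = 0.0865). The region 13831 bp before Sesn1, inside Cep57l1 and with the site of 3 mismatches printed above, stood at 40.7, 43.8, 47.4 and 44.8 at 37°C and 56.8, 55.8, 57.7 and 56.6 at 39°C. It rose by 12.5 ± 1.74 points (adjusted p = 0.000146), and with whole lists the difference was −0.038 points.

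Rises were also seen at 3 regions after the end of Perp, of 13.8, 5.82 and 3.06 points, with adjusted p of 0.00171 to 0.0142 by limma. With whole lists these differences were −1.88, −1.28 and −2.64 points, and none passed the test. The region 17260 bp after the Cdkn1a start rose by 8.16 ± 1.89 points (limma, adjusted p = 0.00448), although 39°C replicate 3 lay below 37°C replicate 2, and it did not pass the test with whole lists (0.341 points). The region at the shared start of Hmmr and Nudcd2, 21677 bp after that of Ccng1, rose by 3.79 ± 0.468 points (limma, adjusted p = 6.55e-05).

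The larger falls lay 28150 bp after the start of Perp (−20.0 points), 18904 bp before that of Mdm2 (−16.8 points) and 15377 bp after that of Bax, at a start of Gys1 (−15.8 points), with adjusted p of 0.000407 to 0.00273 by limma. Another 2 regions that fell, at −5.35 and −5.71 points, lay in Sae1 beyond Bbc3. All 5 also fell with whole lists.

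Fewer peaks were called at the 10 genes at 39°C. The windows held 68, 74, 73 and 75 peaks at 37°C and 55, 52, 60 and 54 at 39°C, a difference of −17.2 (exact permutation test, two-sided, p = 0.0286). Every library at 39°C was below every one at 37°C. The lists were shorter as a whole too: per 10000 listed peaks the windows held 8.92 ± 0.948 at the lower and 8.74 ± 0.807 at the higher temperature (SD over 4 libraries; p = 0.857, exact permutation test). In lists of equal length the windows held 50 to 57 peaks at 37°C and 48 to 54 at 39°C (exact permutation test, p = 0.171). The covered length was 164 ± 18.9 kb for 37°C against 145 ± 10.7 kb for 39°C (SD over 4 libraries; p = 0.171, exact permutation test), and without 37°C replicate 3 the difference was −26.4 kb (exact permutation test, p = 0.0286).

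At Trp53 the window held 6, 8, 7 and 9 peaks at 37°C and 2, 3, 3 and 2 at 39°C, covering 12.8 to 17.5 kb and 6.07 to 7.91 kb. Neither measure overlapped between temperatures. In lists of equal length the window held 3, 4, 3 and 3 peaks at 37°C and 2, 2, 2 and 2 at 39°C, so that the difference of −5 became −1.25. Peak numbers were lower without overlap at 4 of the 10 genes, Trp53, Cdkn1a, Bax and Gdf15 (exact permutation test, p = 0.0286 for each), against 19.7% of protein-coding genes, and higher at 0, against 0.251%. Shares in this paragraph are over all 21951 protein-coding genes, an unlike set. A promoter peak in all 8 libraries was held by 59.9% of those and by all 10 genes. Covered length was lower without overlap at 3 genes, Trp53, Bax and Gdf15, against 32.7%, and higher at 0, against 0.182%. In lists of equal length Trp53 alone of these kept groups apart, for number, against 4.56% of protein-coding genes with fewer and 2.73% with more peaks, and for length, against 25.3% with less and 0.784% with more. There the exact permutation test gave p = 0.143 for peak number at Cdkn1a, 0.0857 at Bax and 0.771 at Gdf15, and for length 0.143 at Bax and 0.0857 at Gdf15. None of the 10 genes had an unadjusted p under 0.05 towards more peaks or more length by the exact permutation test.

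**Figure D5:**
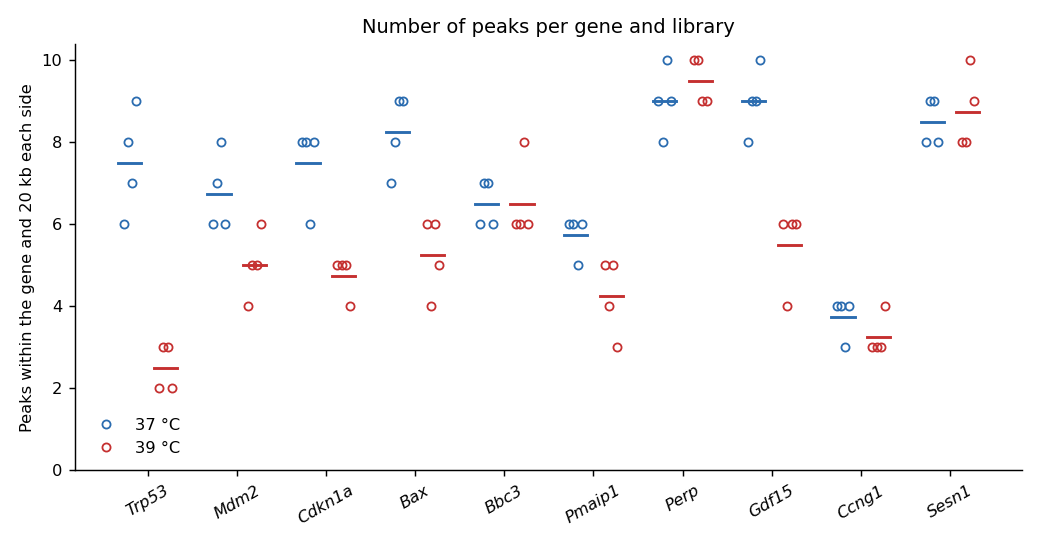
Number of peaks (y axis) within each gene and 20 kb on either side (x axis) in each library, with circles for libraries (blue, 37°C; red, 39°C) and bars for the means of 4. Trp53 goes from 6 to 9 peaks at 37°C to 2 or 3 at 39°C in these whole lists, and from 3 or 4 to 2 in lists of equal length.

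Of the 69 regions, 7 were called in all 4 libraries at 37°C and 0 at 39°C, against 6.04% of all regions, and 0 were called in all 4 at 39°C and 0 at 37°C, against 0.314%. Of the 7, 3 lay in the Trp53 window. One was inside Wrap53, 4939 bp before the Trp53 start, at percentiles of 41.2 to 51.4 in whole lists, one was 19200 bp after the start, at 12.3 to 33.3, and one was at a start of Efnb3, which encodes an ephrin, at 6.36 to 14.9. Another 2 lay in the Bax window, at starts of Gys1 and Tulp2. The others lay 13131 bp after the Pmaip1 start and 18087 bp before that of Cdkn1a, the latter at a start of Trp53cor1 and at a percentile of 0.808 to 15.4. Regions called in more libraries at 37°C numbered 24 of 69, against 37.9%, and those called in more at 39°C 4 of 69, against 5.46%. The 4 were an intronic region each of Perp and Sesn1 and 2 regions outside Perp. A gapless full site in an intron of Perp, 3006 bp after its start, lay inside a peak in 2 of 4 libraries at 37°C and 4 of 4 at 39°C.

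The other p53 target genes considered were a list of 30, drawn up with earlier results of these data known, all with a promoter peak in all 8 libraries. In the cut lists 12 were higher at 39°C and 2 lower (limma, adjusted p below 0.05), against 9.27% and 16.0% of all promoters, and the median difference was 1.02 points, against −0.08 points over all promoters. The largest rises were those of Eda2r, which encodes a TNF receptor family member (6.81 ± 1.40 points, adjusted p = 0.00213), the death receptor gene Fas (6.30 ± 0.615 points, adjusted p = 1.3e-05) and Dglucy (5.87 ± 0.830 points, adjusted p = 0.000165). Trp53inp1, which encodes a p53-induced nuclear protein, rose by 4.72 ± 0.478 points and Phlda3, an inhibitor of Akt signalling, by 3.57 ± 0.401 points. The 2 that fell were Trim21 (−5.22 ± 1.25 points) and the repair nuclease gene Ercc5 (−1.50 ± 0.493 points). With whole lists 5 of the 30 were higher and 9 lower, against 0.53% and 60.8% of all promoters.

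Of 17 regulators and relatives of p53, 16 could be tested, and Trp63 had no promoter peak in any library. In the cut lists 2 were higher and 3 lower, near the 9.27% and 16.0% of all promoters. The p53 family gene Trp73 (2.63 ± 0.875 points), for which 1 of the 39°C libraries had no peak within 1 kb of a start, and the ubiquitin ligase gene Cop1 (2.55 ± 0.726 points) were higher. The checkpoint kinase genes Chek1 (−6.34 ± 0.802 points) and Chek2 (−1.86 ± 0.480 points) and Cdkn2a, the locus of the Mdm2 inhibitor Arf (−1.57 ± 0.463 points), were lower. With whole lists 0 of the 16 were higher by limma, also at an unadjusted p under 0.05, and 7 were lower, against 0.53% and 60.8% of all promoters.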

How the data were processed

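Nuclei of 50000 cells per library were tagged by Omni-ATAC and amplified for 12 cycles. Reads were aligned to mm10 with Bowtie2 (2.4.1), with SAMtools (1.15.1), Picard (2.26.11) and bedtools (2.30.0) also named in the submitters' processing notes, and peaks were called by the authors with MACS3 (3.0.0a7) in each library separately at a q-value of 0.05, without a control. The deposited lists give each peak's pileup signal at the summit, fold enrichment (a ratio) and −log10 p and q. Because each library has its own list, its depth and list length enter every count of peaks.

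Peaks were assigned with GENCODE M21 and sequences read from GRCm38.p6 and RefSeq (Python 3.11.15, numpy 2.4.6, pandas 2.3.3, scipy 1.17.1, matplotlib 3.10.9). Peaks overlapping by at least 1 bp were merged, and regions in at least 2 libraries kept. Rank percentiles were fitted with limma 3.58.1 (R 4.3.3, trend, no covariates) over all regions with a peak in every list, with Benjamini-Hochberg adjustment, after a test on simulated data. Values per library were compared by exact permutation tests over 70 assignments. Regions were named where they passed adjusted p 0.05, were called in all 4 libraries of a single temperature, or held a full p53 site, and the 10 genes were named throughout. Alternatives were list length, fold enrichment, windows around summits, flank, a −log10 q minimum of 5, the replicate block and leaving out libraries. Members and lists were chosen with earlier results of these data known.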

Additional observations from a re-analysis of the deposited data

Results flagged for a closer look

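Dixon's test at the 95% level was applied to the libraries of each temperature, and in 11 of 136 groups (8.09%) 1 library lay far from the other 3, where chance gives about 1 in 20 and whole-number counts with ties pass easily. The Mdm2 promoter peak was 3902 bp wide in 37°C replicate 2, against 16750 to 18028 bp in the others, and 36297 bp in 39°C replicate 1, against 17805 to 17880 bp. The Ccng1 promoter peak was 2082 bp wide in 39°C replicate 4, against 4084 to 4218 bp. Peaks per window stood apart at 37°C for Cdkn1a (6, the others 8), Pmaip1 (5, the others 6) and Ccng1 (3, the others 4), and at 39°C for Cdkn1a (4, the others 5), Bbc3 (8, the others 6), Gdf15 (4, the others 6) and Ccng1 (4, the others 3). The region 22291 bp after the Gdf15 start, at Ssbp4, stood at percentile 94.6 in 39°C replicate 3, against 95.6 to 95.7.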

How the results depend on the processing

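The regions higher and lower at 39°C, 16 and 8 in lists of equal length, numbered 5 and 17 with whole lists, 7 and 2 without flanks, 17 and 7 on log2 fold enrichment centred on the median of each library, 13 and 7 in windows of 100 bp on each side of summits, where the Cdkn1a and Bbc3 promoters had no window with a peak in all 8 lists and were not tested, and 0 and 0 by exact permutation tests per region, where the lowest adjusted p was 0.0752 and 15 and 8 had an unadjusted p under 0.05, against 15.5% and 22.5% of all regions. The counts on fold enrichment and in windows around summits have no share over all regions beside them, and describe these regions only. Leaving out each library gave 15 to 17 and 6 to 8. Of the 24 called regions 18 had the same sign with whole lists, and the 6 that turned were the Pmaip1 promoter (−0.39 points), the regions 11906 bp before Cdkn1a (−2.64) and 13831 bp before Sesn1 (−0.038), and those 15977, 18572 and 31509 bp after the Perp start (−1.88, −1.28 and −2.64). On centred log2 fold enrichment the Trp53 promoter turned to 0.00865. Its uncentred fold enrichment, a ratio and not a log2 value, differed by −6.50 with overlapping groups (exact permutation test, p = 0.686). In 39°C replicate 4 that ratio was 45.2, against 75.2 to 83.4 in the other libraries at 39°C and 69.9 to 82.9 at 37°C. Without the limma trend the Trp53 and Cdkn1a promoters had adjusted p of 0.103 and 0.0803.

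The difference in peak number of −17.2 became −3.50 in lists of equal length (exact permutation test, p = 0.171), −1.25 without flanks (exact p = 0.6) and −18.2 without the 2 deep libraries (exact p = 0.0667, the smallest possible there), and ranged from −18.8 to −16.2 without each library. The difference in covered length of −19.0 kb ranged from −26.4 kb (without 37°C replicate 3) to −12.3 kb without each library, and was −3.82 kb without the 2 deep libraries, −0.729 kb without flanks, −9.49 kb in lists of equal length and −61.9 kb with 50 kb flanks (exact permutation test, p = 0.8, 0.914, 0.343 and 0.0571). Promoter peaks stayed at 10 of 10 genes and narrower ones at 2 without each library, and wider ones ranged from 0 to 1, being 1 without 39°C replicate 4 (Ccng1), 1 by summed width (Mdm2) and 1 without the 2 deep libraries (Mdm2). Regions with a full p53 site at the summit, 5 at first, numbered 11 within 250 bp, 0 with no mismatch and 2 with at most 1. The cause of these changes was not tested.

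Replicate numbers are shared between temperatures, and the labels do not say whether same-numbered libraries share a day or culture. Deviations of same-numbered libraries correlated at 0.106, −0.0696, 0.112 and −0.0685, and those of other pairs at −0.167 to 0.118. Values this low cannot decide whether the libraries are paired. With the replicate block the counts were 16 and 8, and the difference in peak number of −17.2 had p = 0.125 (exact, the smallest possible with 4 pairs).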
